A study of Homo sapiens with 6 samples.

Results

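The genes described here are 10 members of the ETS family of transcription factors, ETV1, ETV3, ETV4, ETV5, ETV6, ETV7, ETS1, ETS2, FLI1 and ERG, taken by their symbols from the 23368 symbols of the count tables. All 10 symbols were found. They were selected on their counts in this same comparison, in which ETV4 and ETV7 differed, so their differences are given as a description without a test. NB4, a long-established line of human acute promyelocytic leukemia cells that carries the PML-RARA fusion, was either not treated or exposed for 24 h to 10 µM maltonis, a synthetic hydroxypyrone derived from maltol that was dissolved in water. Each group had 3 libraries of ribosome-depleted total RNA. The study describes them as biological replicates. Both groups were the same cell line in the same medium, so the values describe a single leukemia line.

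ETS proteins share a winged helix-turn-helix DNA-binding domain that recognises the core GGAA, and the bases around this core differ between subfamilies. ETV1, ETV4 and ETV5 form the PEA3 subgroup of activators, which act downstream of RAS and ERK signalling and whose genes are repressed by capicua (CIC). ETV6 and ETV7 are repressors that polymerise through a pointed domain, ETV3 is a repressor studied in macrophages, ETS1 and ETS2 are targets of ERK, and FLI1 and ERG act in stem cells, megakaryocytes and endothelium. In blood cells, ETV6 and ERG are also known from leukemia fusions and overexpression.

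The promoters of ETV3, ETV6 and ERG, 3 members whose counts differed between the groups, are shown to place the GGAA core near their starts. They are RefSeq windows on GRCh38.p14 of 300 bases, 250 before and 50 after a transcription start, printed 5′ to 3′ on the gene's strand. Of the 10 genes, 5 had an entry, ETV1, ETV3, ETV6, ETS2 and ERG. ETV4, ETV5, ETV7, ETS1 and FLI1 had none. Capitals mark GGAA or, on the opposite strand, TTCC, and in ETV3 the longer ETS core CGGAAG. The ETV3 window is chr1:157138346-157138645, minus strand, the ETV6 window is chr12:11649424-11649723, plus strand, and the ERG windows, both on the minus strand, are chr21:38660618-38660917 for promoter 1 and chr21:38498455-38498754 for promoter 3.
ETV3: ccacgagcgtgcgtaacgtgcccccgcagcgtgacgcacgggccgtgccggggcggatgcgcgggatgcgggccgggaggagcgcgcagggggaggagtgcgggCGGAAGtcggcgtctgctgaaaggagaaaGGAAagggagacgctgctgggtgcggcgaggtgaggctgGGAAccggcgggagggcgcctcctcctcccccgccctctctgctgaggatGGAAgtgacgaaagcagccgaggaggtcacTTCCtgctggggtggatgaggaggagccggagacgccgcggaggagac
ETV6: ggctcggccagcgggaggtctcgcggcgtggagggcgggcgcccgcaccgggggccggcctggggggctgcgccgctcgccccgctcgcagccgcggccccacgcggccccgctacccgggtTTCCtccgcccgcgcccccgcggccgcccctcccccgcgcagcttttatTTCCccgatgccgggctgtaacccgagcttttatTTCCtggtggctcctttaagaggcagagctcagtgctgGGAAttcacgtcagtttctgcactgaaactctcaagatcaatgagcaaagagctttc
ERG promoter 1: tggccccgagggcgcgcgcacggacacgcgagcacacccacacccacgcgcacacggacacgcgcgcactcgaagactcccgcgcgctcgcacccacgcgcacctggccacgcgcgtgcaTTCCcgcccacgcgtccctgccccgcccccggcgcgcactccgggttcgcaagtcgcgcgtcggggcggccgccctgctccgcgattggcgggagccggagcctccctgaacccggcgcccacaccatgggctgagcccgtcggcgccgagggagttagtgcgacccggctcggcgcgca
ERG promoter 3: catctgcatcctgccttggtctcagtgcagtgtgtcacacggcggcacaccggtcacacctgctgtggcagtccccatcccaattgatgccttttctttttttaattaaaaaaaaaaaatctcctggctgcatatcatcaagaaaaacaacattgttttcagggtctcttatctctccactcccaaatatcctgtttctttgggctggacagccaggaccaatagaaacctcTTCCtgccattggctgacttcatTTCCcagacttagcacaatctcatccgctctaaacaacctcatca

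On both strands the ETV3 window held 5 GGAA matches and the ETV6 window 4, while the ERG windows, of which RefSeq gives 4, held 1, 6, 2 and 2 for promoters 1 to 4. Over 35116 promoter windows of 27305 genes, the median was 3 matches, with quartiles of 2 and 5. ERG promoter 1 lay under the lower quartile and ERG promoter 2 above the upper one. CGGAAG, which contains GGAA, was found in the ETV3 window alone among the windows of these members and in 19.5% of all windows. The interferon-type motif, GAAA followed after any 2 bases by GAAA again, was found in 3.57% of all windows. TGAATGAA, a motif bound by capicua, was found in 1.65%. Neither was in a window of the 5 members with an entry. ETV4, ETV5 and ETV7 had no entry, so their promoters were not searched for either motif. The other capicua motif, TGAATGGA, found in 1.03% of windows, was in 1 window of ETV1. A match is a description of letters, and the counts are summed per gene, so which start was used was not measured.

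Total counts ranged from 18492154 to 38205483 per library. Levels are given as CPM, counts scaled to library size with TMM normalization. A count of 3, used as the detection floor, equals 0.0785 to 0.162 CPM depending on the library, and all floors and intervals on counts cover counting error only. All 7 promyelocyte markers were detected, and their summed level was 13870 to 16340 CPM without treatment and 8664 to 9127 CPM with maltonis. This sum is mostly MPO, the granule enzyme myeloperoxidase, which was lower with CD33 and CEBPE. AZU1, CTSG and CSF3R were higher, PRTN3 did not pass, and the median log2 fold change of the 7 was 0.37. Of 9 markers of other cell types, 5 were at 0 in every library and 6 were at or under 3 counts. Their sum was 16.34 to 17.95 CPM without treatment and 10.74 to 13.18 CPM with maltonis and was mostly the epithelial marker EPCAM, and the part of these markers in the results below was not tested. A code in each library's deposited name, not explained by the sources, parts replicate 1 of both groups (code A) from replicates 2 and 3 (code B), and values within each code are given for the members and, where they differ by over 1.5-fold, for the tested genes named from the lists.

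ETV4 and ETV5, both activators of the PEA3 subgroup, were lower in maltonis-treated cells, and ETV4 fell far further than ETV5. ETV4 had 1714, 3015 and 2736 counts in not treated replicates 1, 2 and 3 and 97, 169 and 132 in the maltonis-treated ones, or 91.3, 83.2 and 82.5 against 5.01, 5.04 and 4.69 CPM. The groups lay far apart, with little spread inside either of them. The mean dropped from 85.7 ± 4.88 to 4.91 ± 0.196 CPM (SD, n = 3), which left 5.73% of the not treated level. On the log2 scale the fitted difference was −4.12 (SE 0.0827), and the ratio of the CPM was −4.19 within code A and −4.09 within code B. In a bulk library, a lower level in every cell cannot be told apart from fewer cells that carry the transcript.

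ETV5 had 2273, 4253 and 3954 counts in not treated replicates and 976, 1560 and 1332 counts with maltonis. This gave 121, 117 and 119 CPM against 50.4, 46.5 and 47.3 CPM, and the groups did not overlap. The mean went from 119 ± 1.84 to 48.1 ± 2.05 CPM (SD, n = 3), a 2.48-fold lower level with a log2 fold change of −1.31 (SE 0.0591), −1.26 within code A and −1.33 within code B. ETV5 therefore lay just short of the 2.5-fold change used in the study, and the fit without not treated replicate 2 (−1.33), maltonis replicate 1 (−1.37) or maltonis replicate 3 (−1.32) placed it just beyond. ETV1, the remaining PEA3 gene, was at 0 counts in 5 libraries and at 1 in maltonis replicate 2, so that only ETV4 and ETV5 were present above the floor. A sum of 3 counts over a group would be 0.0340 CPM without treatment and 0.0370 CPM with maltonis, which limits what level of ETV1 these depths could have missed.

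**Figure D1:**
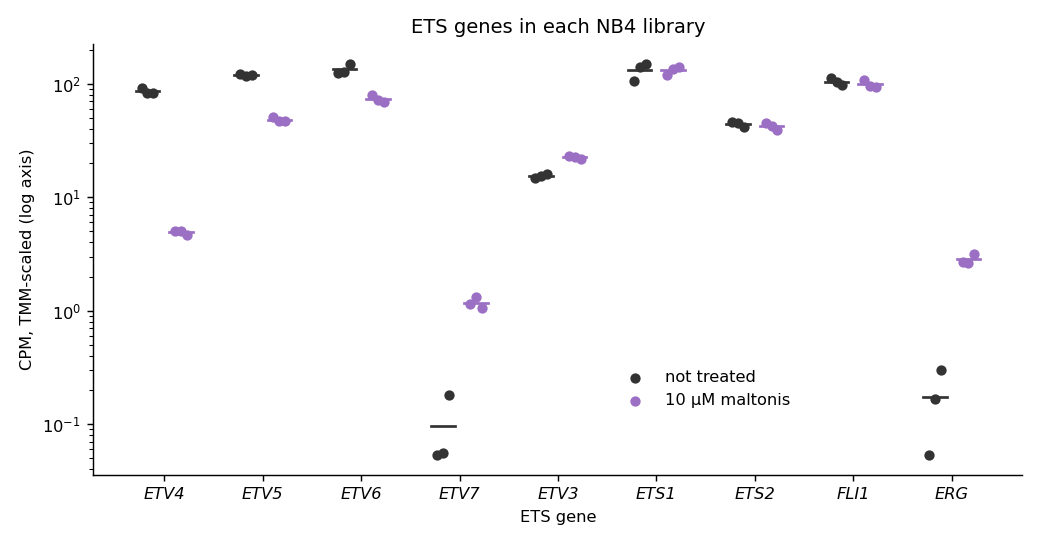
Level of 9 ETS genes in each library (points, TMM-scaled CPM on a log axis) with the mean of 3 libraries per group (lines). Not treated is in black and 10 µM maltonis in purple. ETV1, with a count of 1 in maltonis replicate 2 and 0 in every other library, is not drawn. ETV4 goes from about 85.7 to 4.91 CPM, ETV7 goes from 0.0965 to 1.17 CPM and ERG from 0.173 to 2.83 CPM, and the points of ETS1, ETS2 and FLI1 overlap.

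ETV6 and ETV7, the paired repressors of the TEL subgroup, differed in opposite directions and at very different levels. ETV6 had 2338, 4616 and 4989 counts in not treated replicates and 1525, 2428 and 1938 with maltonis, or 125, 127 and 150 against 78.7, 72.4 and 68.8 CPM. Not treated replicate 3 was the highest, yet the lowest not treated library was still well above the highest treated one. The mean was 134 ± 14.2 against 73.3 ± 5.04 CPM (SD, n = 3), and the log2 fold change was −0.87 (SE 0.0887). It was −0.66 within code A and −0.98 within code B.

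ETV7, a gene known as induced by interferon, had 1, 2 and 6 counts in not treated replicates and 22, 44 and 30 counts with maltonis. This was 0.0533, 0.0552 and 0.181 CPM against 1.14, 1.31 and 1.06 CPM, so the groups were apart, but not treated libraries held at most 6 counts. The ratio of the summed counts, 9 against 96, was 11.6 after scaling for depth, with a 95% counting interval of 5.86 to 26.1. The fitted log2 fold change was 3.48 (SE 0.379) and depended on the not treated library with the most counts, since it was 4.32 without not treated replicate 3 and 3.09 without not treated replicate 2. It was 4.41 within code A, where the not treated library has 1 count, and 3.33 within code B. After treatment ETV7 was at 1.17 ± 0.127 CPM (SD, n = 3). Per exon length, this was 0.493 RPKM beside 10.4 RPKM for ETV6.

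ETV3 was modestly higher in treated cells. It had 279, 552 and 529 counts in not treated replicates and 450, 754 and 617 counts with maltonis, or 14.9, 15.2 and 16.0 against 23.2, 22.5 and 21.9 CPM. The groups did not overlap and each was tight, with 15.4 ± 0.555 and 22.5 ± 0.669 CPM (SD, n = 3). The log2 fold change was 0.55 (SE 0.0733), 0.64 within code A and 0.51 within code B.

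ERG, a regulator of blood stem cells and endothelium, had the largest fitted increase of the 9 members tested. Its counts were 1, 6 and 10 in not treated replicates and 52, 89 and 89 with maltonis, or 0.0533, 0.166 and 0.302 against 2.69, 2.65 and 3.16 CPM. The treated libraries all lay above every not treated one, from a low starting level of at most 10 counts. The ratio of the summed counts, 17 against 230, was 14.7 with a 95% counting interval of 8.99 to 25.7. On the log2 scale the fit gave 3.86 (SE 0.308), 3.59 without not treated replicate 1 and 4.43 without not treated replicate 3, while the ratio was 5.66 within code A and 3.64 within code B. The mean level after treatment was 2.83 ± 0.283 CPM (SD, n = 3), or 0.373 RPKM compared with 12.1 RPKM for its close relative FLI1.

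FLI1, ETS1 and ETS2 differed by less than the spread between libraries, and their groups overlapped. FLI1 had 113, 103 and 97.7 CPM in the not treated replicates, compared with 108, 95.4 and 93.7 CPM after maltonis, with means of 104 ± 7.54 and 99.2 ± 8.10 CPM (SD, n = 3) and a log2 fold change of −0.07 (SE 0.0803), −0.05 within code A and −0.08 within code B. ETS1 was at 105, 141 and 149 CPM against 120, 135 and 141 CPM, with a mean of 132 CPM in both groups and a log2 fold change of 0.00 (SE 0.125). In ETS1 replicate 1 was the lowest library of each group, and the ratio was 0.19 within code A and −0.07 within code B. ETS2 was at 45.7, 45.4 and 41.3 CPM against 45.0, 42.7 and 39.4 CPM, with a log2 fold change of −0.06 (SE 0.0768), −0.02 within code A and −0.08 within code B. Over the other scalings, libraries left out and codes, FLI1 took values between −0.16 and 0.05, ETS1 between −0.14 and 0.19 and ETS2 between −0.12 and 0.06, so no sign can be given to them.

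**Figure D2:**
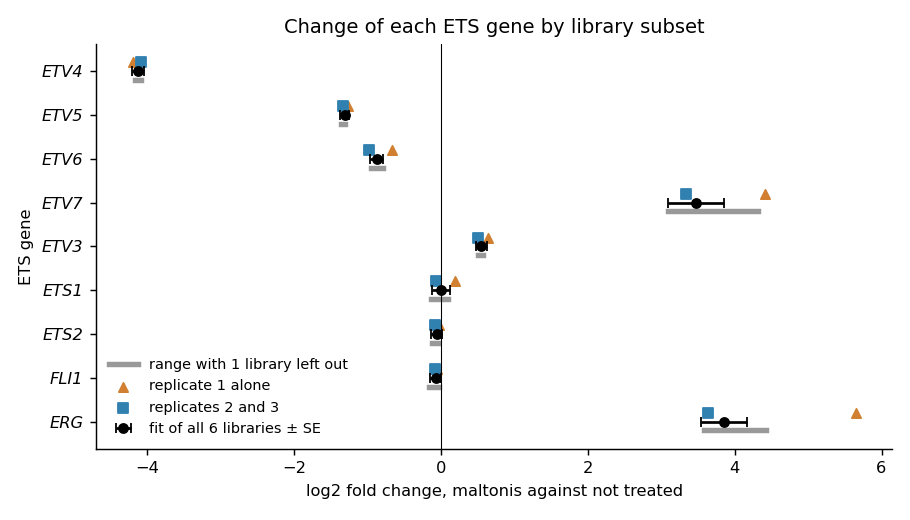
Log2 fold change of maltonis against not treated for 9 ETS genes: the fit of all 6 libraries with its SE (black), the ratio within replicate 1 (orange, code A) and within replicates 2 and 3 (blue, code B), and the range of fits with 1 library left out (grey). ETV4 stays near −4.12 in every subset, while ERG ranges up to 5.66 and ETV7 up to 4.41 within code A.

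Of the 13209 genes that passed the filter on low counts, 31.9% were higher and 32.1% lower at a false discovery rate (FDR) under 0.01, 64.0% in either direction. Of the 9 ETS members tested, 3 were higher (ETV3, ETV7 and ERG), 3 were lower (ETV4, ETV5 and ETV6) and 3 did not pass. Beyond 2.5-fold, 9.95% of all genes were higher and 10.4% lower, 20.3% in all, and among the members these were ETV7 and ERG on the one side and ETV4 on the other. The groups did not overlap for 6 of the 9 members and for 76.6% of all genes. Nothing is read from these shares, because the members were chosen with this comparison known and because ETV7 and ERG passed the filter only through the treated libraries. ETV1 did not pass it.

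Levels of different genes were compared as RPKM, which divides the TMM-scaled CPM by the summed length of a gene's annotated exons. In not treated cells ETV4 was the fourth of the 28 ETS genes at 23.8 ± 1.35 RPKM, after ELF1 (40.4), the myeloid regulator SPI1 (36.5) and ELK1 (24.6), with which it overlapped. ETV5 (20.6 ± 0.318), ETV6 (19.0 ± 2.01) and ETS1 (18.4 ± 3.24) came next in RPKM, and each of the last 2 overlapped with the gene before it. ETV4 and ETV5 were thus among the most abundant ETS transcripts of untreated NB4 cells by this measure. FLI1 (12.8 ± 0.923) and ETS2 (9.61 ± 0.535) stood lower, ETV3 had 2.29 RPKM, and ETV7 (0.0406) and ERG (0.0229) were last among the members detected above single counts.

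In maltonis-treated cells the order was different. ETV4 was the fifteenth at 1.36 RPKM, under ETV3 at 3.36 RPKM, and ETV5 was the tenth at 8.29 ± 0.354 RPKM, overlapping with ETS2 at 9.22 ± 0.606 RPKM. ETS1 became the most abundant of the 10 members at 18.5 ± 1.49 RPKM, followed by FLI1 (12.1 ± 0.991) and ETV6 (10.4 ± 0.712), while ETV7 (0.493) and ERG (0.373) stayed at a small part of those levels. With exons linked to RefSeq transcripts as the length, ETV4 was the third ETS gene in not treated cells at 31.1 RPKM and SPI1 the first, and FLI1 rose to 23.1 RPKM.

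**Figure D3:**
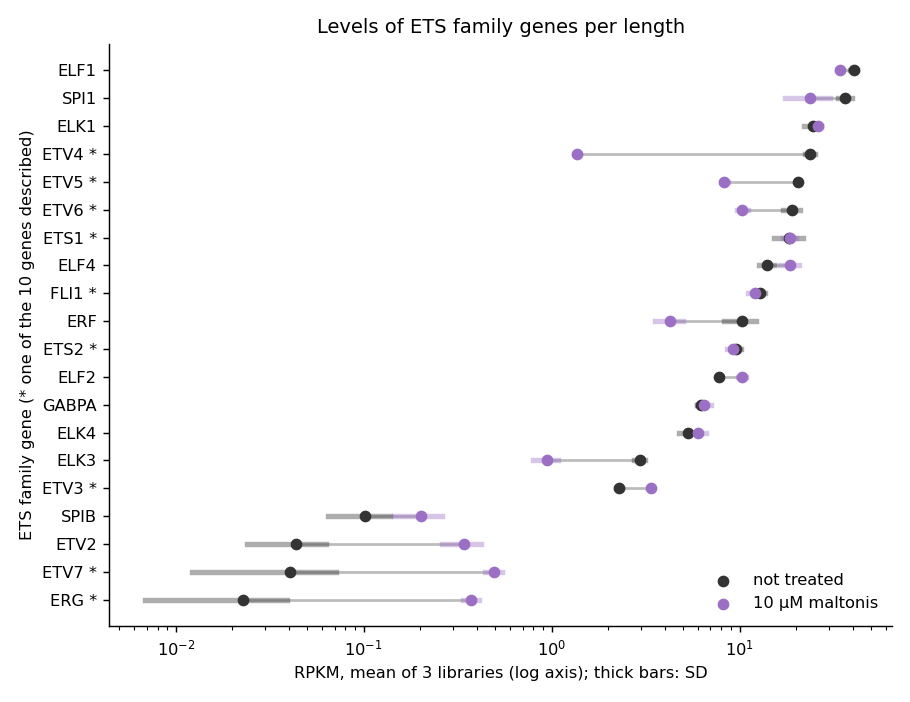
Mean RPKM over 3 libraries (points, log axis) with SD (thick bars) of the 20 ETS genes that passed the filter on low counts, not treated in black and maltonis in purple, ordered by the not treated level; asterisks mark the members. ETV4 moves from the fourth place at 23.8 RPKM to 1.36 RPKM, and ETV7 and ERG remain under 0.5 RPKM.

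Summed over the 10 members, ETS transcripts were at 106.4 ± 2.32 RPKM without treatment and 64.1 ± 1.19 RPKM with maltonis (SD, n = 3), a ratio of 0.602. The other 18 ETS genes summed to 148.4 ± 9.27 and 131.4 ± 11.04 RPKM. As a share of the sum of all 28, ETV1, ETV4 and ETV5 together went from 17.4% ± 0.157 to 4.94% ± 0.132. The share of ETV6 and ETV7 went from 7.47% to 5.55%. Shares of some other subgroups were higher, with ETS1 and ETS2 going from 11.03% to 14.2% and ELF1, ELF2 and ELF4 from 24.4% to 32.3%. The share of ETV3 and ERF was lower, going from 4.9% to 3.9%. The mean share of SPI1, SPIB and SPIC went from 14.4% to 12.2%, with overlapping groups. A share depends on all the other genes in the sum, so these are changes of composition and not of level.

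Of the other 18 ETS family genes, 11 were tested, and 3 were higher, 4 lower and 4 not past the threshold, with a median log2 fold change of 0.09 beside 0.01 over all genes. These 7 called of 11 stand beside 64.0% called over all genes, with no difference read from it. ETV2, a regulator of blood and vessel formation in the embryo, had 1, 5 and 3 counts in not treated and 18, 21 and 18 in treated libraries. It passed the filter only through the treated libraries, so its log2 fold change of 2.75 (SE 0.389), 4.13 within code A and 2.47 within code B, is a description. ELK3, a repressor regulated by ERK, fell from 13.7 ± 0.949 to 4.38 ± 0.661 CPM (SD, n = 3; log2 fold change −1.65, SE 0.127, adjusted p = 4.68e-06 by edgeR's quasi-likelihood test, adjusted by Benjamini-Hochberg over all genes as for every adjusted p below). Among the most abundant ETS genes, SPI1 fell from 75.6 ± 6.06 to 49.3 ± 13.1 CPM (−0.62, adjusted p = 0.00754), ELF1 from 175 ± 7.24 to 149 ± 5.63 CPM (−0.24, adjusted p = 0.00559), and ELK1 did not pass (0.09, adjusted p = 0.328).

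Other ETS genes were named after their values had been seen. ERF, a repressor that ERK exports from the nucleus, was lower by 1.27 on the log2 scale (SE 0.159, adjusted p = 0.000101) and went beyond 2.5-fold without not treated replicate 2 (−1.34), not treated replicate 3 (−1.36) or maltonis replicate 1 (−1.40), which makes 2 such genes in place of 1. ELF2 (0.41) and ELF4 (0.40) were higher, and GABPA, the DNA-binding subunit of the GA-binding protein, was at 33.9 and 35.1 CPM with an adjusted p of 0.595. SPI1 and ELF1 both lost their call without not treated replicate 2, maltonis replicate 2 or maltonis replicate 3, which leaves 2 lower genes in place of 4. SPI1 also lost it without not treated replicate 1 or 3. ELF4 lost its call without not treated replicate 2, maltonis replicate 1 or maltonis replicate 2, which leaves 2 higher genes in place of 3.

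Of 26 regulators and partners of ETS proteins, all tested, 6 were higher, 6 lower and 14 not past the threshold, with a median log2 fold change of 0.10. Over all genes 64.0% were called, 31.9% higher and 32.1% lower, and nothing is read from the count. GABPB1, the subunit that lets GABPA activate transcription, was the only gene of this list beyond 2.5-fold: it was at 99.8, 94.5 and 90.2 CPM in not treated and at 16.2, 17.6 and 18.2 CPM in treated libraries (log2 fold change −2.45, SE 0.0755, adjusted p = 4.45e-08). GABPB1 thus fell while GABPA did not pass the test. CIC, the repressor of ETV4 and ETV5, was at 37.7, 40.1 and 41.5 CPM against 66.1, 50.8 and 48.0 CPM (0.46, SE 0.118, adjusted p = 0.00667), and the call was lost when any library other than maltonis replicate 3 was left out. Its partner ATXN1L was at 72.5 ± 8.70 against 94.8 ± 12.9 CPM and did not pass (0.39, adjusted p = 0.0147). COP1, listed as RFWD2, a ubiquitin ligase that marks PEA3 proteins for degradation, rose from 62.8 ± 1.49 to 75.3 ± 1.38 CPM (0.26, adjusted p = 0.00252), a call lost without replicate 2 or 3 of either group. The call of ATXN1L was gained without not treated replicate 1.

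Named after their values had been seen, DET1, which works with COP1, rose by 0.74 (adjusted p = 0.00026) and GABPB2 fell by 0.57 (adjusted p = 0.00213, lost without not treated replicate 2). MAPK3, an ERK kinase, rose by 0.93 (adjusted p = 2.64e-05), all on the log2 scale. RUNX1, a partner of ETS1 on DNA, was at 81.4 ± 17.6 against 57.7 ± 4.91 CPM and did not pass (adjusted p = 0.0117), although it passed without not treated replicate 1. The 6 higher genes became 3 without not treated replicate 2 or maltonis replicate 3 and 2 without not treated replicate 3 or maltonis replicate 2.

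Most genes listed as ERK output and CIC targets, a pathway known to control ETV4 and ETV5, were lower. Of 21 listed, 17 were tested, and 13 fell, 0 rose and 4 did not pass, against 32.1% of all genes lower. Their median log2 fold change was −1.46, and 9 were lower beyond 2.5-fold, against 10.4% of all genes. The list was written with earlier results of these data known, so its counts are a description. Whether these genes and ETV4 or ETV5 are linked in these cells was not tested. IER3, an immediate early response gene, was at 13.6, 14.4 and 11.04 CPM in not treated and at 1.34, 0.686 and 0.603 CPM in treated libraries (−3.97, SE 0.237, adjusted p = 1.06e-06), with −3.34 within code A and −4.30 within code B. CCND1, cyclin D1, went from 69.3 ± 2.08 to 9.07 ± 0.709 CPM (−2.94, SE 0.0806, adjusted p = 2.87e-08), and SPRY4, a feedback inhibitor of RAS signalling, from 38.1 ± 4.10 to 5.24 ± 1.25 CPM (−2.87, SE 0.166, adjusted p = 8.79e-07).

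Others of this list were named after their values had been seen. CCND2, cyclin D2, went from 970 ± 57.0 to 181 ± 1.11 CPM (−2.42, adjusted p = 2.55e-08), SPRED1 fell by 2.38 (adjusted p = 4.56e-08), and DUSP6, the ERK phosphatase, fell by 0.82 (adjusted p = 3.90e-06). EGR1, an immediate early target of ERK through ELK1, was at 13.9 ± 2.03 against 12.8 ± 2.64 CPM and did not pass (−0.13, adjusted p = 0.475, with 0.39 within code A and −0.38 within code B). Of the 4 genes not tested, 3 had more counts in every treated library than in any not treated one: SPRED3 (0, 0 and 0 against 4, 6 and 8), IL17RD (0, 1 and 2 against 4, 5 and 6) and EPHA4 (0, 0 and 0 against 1, 3 and 3).

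Genes reported in other systems as targets of PEA3 factors were looked at next. Of 18 listed, 12 were tested, 2 rose, 6 fell and 4 did not pass, with a median log2 fold change of −0.53, so that 8 of 12 were called beside 64.0% of all genes. The secreted protein osteopontin (SPP1) was at 7.94, 8.50 and 8.20 CPM against 2.27, 2.51 and 2.06 CPM (−1.85, SE 0.119, adjusted p = 1.66e-06). The protease genes PLAU (45.4 ± 2.86 to 12.9 ± 0.207 CPM, −1.82, adjusted p = 1.71e-07) and MMP2 (8.45 ± 0.584 to 2.81 ± 0.977 CPM, −1.64, adjusted p = 9.16e-05, with −1.09 within code A and −1.92 within code B) fell too, while the receptor gene ERBB2 rose from 5.52 ± 0.391 to 14.2 ± 0.809 CPM (1.37, adjusted p = 3.26e-06). Without not treated replicate 3, maltonis replicate 1 or maltonis replicate 2, 5 in place of 3 genes were lower beyond 2.5-fold, and without maltonis replicate 1 ERBB2 no longer exceeded it, which leaves 0 in place of 1. Named after their values had been seen, MMP9 was lower by 1.32 on the log2 scale (adjusted p = 5.77e-07) and CXCR4, the chemokine receptor, was higher by 1.15 (adjusted p = 9.61e-07).

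**Figure D4:**
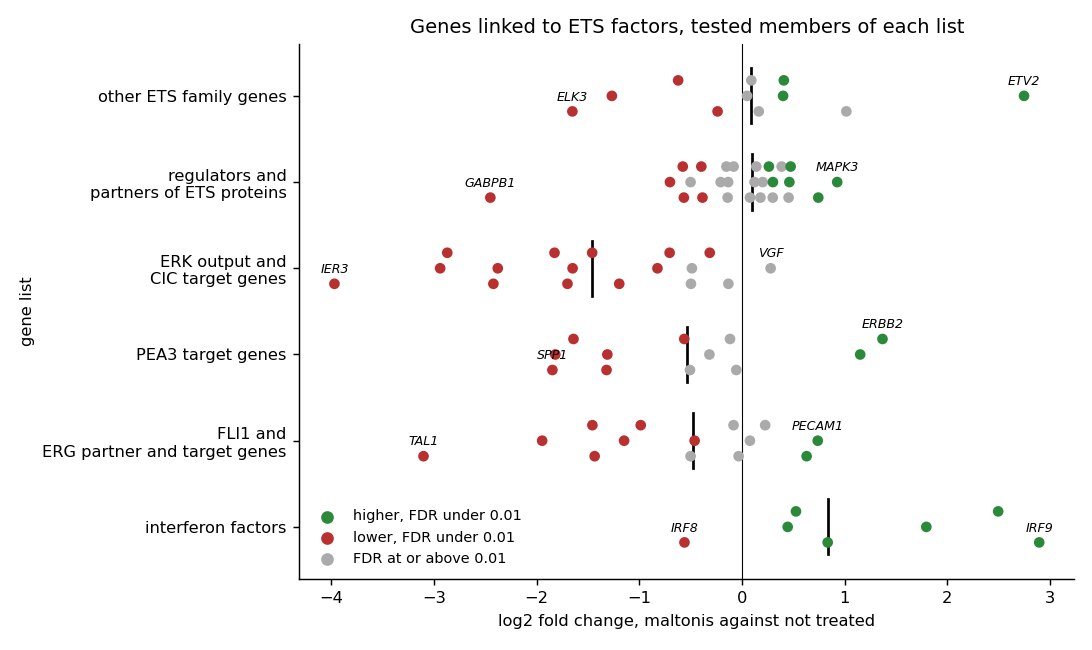
Log2 fold change of maltonis against not treated for each tested gene of 6 lists linked to ETS factors, green where higher and red where lower at an FDR under 0.01, grey where not past it, with the median of each list (black line) and the outermost genes labelled. The list of ERK output and CIC targets has its median at −1.46 with no gene higher, while the interferon factors have a median of 0.84 and 1 lower gene, IRF8.

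Partners and targets of FLI1 and ERG include many genes of stem cells, megakaryocytes and endothelium. Of 21 listed, 14 were tested, 2 rose, 7 fell and 5 did not pass, with a median log2 fold change of −0.48, so that 9 of 14 were called beside 64.0% of all genes. TAL1, a partner in the stem cell complex with ERG and FLI1, had 12, 30 and 17 counts in not treated and 1, 4 and 1 in treated libraries, so it passed the filter only through the group where it was higher and its log2 fold change of −3.10 (SE 0.464) is a description. LMO2, the bridging factor of that complex, fell from 70.5 ± 3.44 to 18.3 ± 1.65 CPM (−1.95, SE 0.0852, adjusted p = 2.1e-07) and LYL1, the relative of TAL1, from 122 ± 18.3 to 44.6 ± 3.98 CPM (−1.46, SE 0.116, adjusted p = 5.73e-06). Named after their values had been seen, GATA2 fell by 1.15 (adjusted p = 4.48e-05), and the megakaryocyte integrin gene ITGA2B (0.63, adjusted p = 9.02e-05) and the endothelial and platelet gene PECAM1 (0.74, adjusted p = 0.00776) were higher. PECAM1 lost its call without not treated replicate 2 or without any maltonis replicate, which leaves 1 higher gene in place of 2.

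ETV7 is known as an interferon-induced gene, and of 7 factors that carry the interferon response 6 were higher and 1 lower, with a median log2 fold change of 0.84. Over all genes 31.9% were higher and 32.1% lower. IRF9 was at 7.14, 5.99 and 6.36 CPM in not treated and at 49.0, 45.5 and 49.4 CPM in treated libraries (2.90, SE 0.0889, adjusted p = 4.36e-08). IRF7 went from 17.6 ± 2.32 to 99.0 ± 8.59 CPM (2.496, adjusted p = 2e-07) and STAT2 from 57.1 ± 1.14 to 198 ± 2.64 CPM (1.80, adjusted p = 3.83e-08). IRF8, a partner of SPI1 on DNA that was named after its value had been seen, was the lower one, at 27.1 ± 3.97 against 18.3 ± 0.991 CPM (−0.56, adjusted p = 0.00157). Whether these genes and ETV7 are linked in these cells was not tested.

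The nearest annotated genes of the members were looked up in the RefSeq gene table. There were 19 with a row in the counts that were not members themselves, of which 7 were tested, 2 rose, 4 fell, 1 did not pass, and 12 had too few counts. These calls stand beside 64.0% called over all genes, with nothing read from them. DHX8, an RNA helicase of the spliceosome that overlaps ETV4 in this annotation, was at 108 ± 1.02 CPM in not treated and 145 ± 5.95 CPM in treated cells (0.43, SE 0.0557, adjusted p = 0.000119), so it moved the other way from ETV4. MIR2117 and MEOX1, the other neighbours of ETV4, were at 0 in every library. PXT1, next to ETV7, had 1, 1 and 1 counts in not treated and 9, 12 and 17 in treated libraries and passed the filter only through the latter, and C6orf222 on the other side had 0, 0 and 0 against 1, 0 and 5 counts. Antisense genes are annotated at ETV5, ETV7, ETS1 and FLI1 and had no row of their own, and how the counting used strand is not stated, so reads from them cannot be told apart from those of the members.

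The genes whose 6 centred log2 CPM values lay closest to those of ETV4 were PTK7 (Euclidean distance 0.243), VASP (0.283) and TSEN15 (0.293). PTK7, a receptor-like kinase, was at 18.1 ± 0.0991 against 1.06 ± 0.0630 CPM, and VASP, a regulator of actin filaments, was at 113 ± 5.18 against 6.19 ± 0.677 CPM. Among the genes closest to ETV7 were SLC41A2 (0.463) and OVOL1 (0.466), of which OVOL1 had 0, 0 and 2 counts in not treated libraries. With 2 groups of 3 libraries the likeness mostly reflects a difference of similar size between the groups.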

How the data were processed

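RNA was sequenced from 3 not treated and 3 maltonis-treated NB4 libraries. The authors deposited 1 table per library of whole-number HTSeq counts per gene symbol, without normalization, and the submitters' processing notes also name TopHat, Bowtie2 and hg19. Versions, the annotation and the strand setting are not given in the sources used here, and overlapping, antisense and paralogous genes are uncertain for that reason. For the counts, edgeR 4.0.16 under R 4.3.3 was run on the 6 libraries with no covariate (TMM scaling, filterByExpr, quasi-likelihood test), and p-values were adjusted by Benjamini-Hochberg over 13209 genes. A gene was called at an FDR under 0.01, and beyond 2.5-fold as in the study, whose RPKM criterion was left out. Same-group libraries differed by more than sampling noise and were each counted as 1 sample.

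RPKM used exon lengths of GENCODE version 29, found for 20195 symbols directly and 1463 by a synonym, while 1710 had none, with RefSeq-linked exons as the alternative. That annotation is on GRCh38, so no coordinates were taken to the counts. Counting intervals for summed counts are exact at the 95% level.

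The members and all gene lists were chosen with earlier results of these data known. Named genes are the 10 members, the 3 other ETS genes with the highest RPKM and those beyond 2.5-fold, up to 3 genes beyond 2.5-fold with the largest change in each direction of each other list, CIC, ATXN1L and COP1, the neighbours of ETV4 and ETV7, and the 3 genes closest in pattern to each of these 2. Some genes that this rule names are not reported here. Alternatives were DESeq2 1.42.0 and its size factors, total-count and upper-quartile scaling, no filter on low counts, a replicate block, each library left out, and each library code. The fit was tested on simulated counts of 13077 genes. It recovered 97 of 100 genes with a log2 change of 1 and 99 of 100 with a change of 2, with 4 false calls. Changed genes were drawn above a minimum mean count, and all genes shared the same dispersion. A far smaller share of genes changed there than the 64.0% called in the data, so recovery under such broad change was not measured. Tables and figures were made with Python 3.11.15, pandas 2.3.3, scipy 1.17.1 and matplotlib 3.10.9.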

Additional observations from a re-analysis of the deposited data

How the results depend on the processing

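The 6 members whose groups did not overlap kept their direction in every fit and ratio, and of 126 values for the 9 members tested 110 stayed within 1 SD of the value reported. The number of members higher (3) and lower (3) was the same under every alternative, and the number lower beyond 2.5-fold lay between 1 and 2 with a library left out, the added gene being ETV5. Total-count scaling raised the median of all genes by 0.119 on the log2 scale, and under it and under upper-quartile scaling 2 other ETS genes were lower in place of 4, while 10 regulators were higher under total counts in place of 6. Without a filter on low counts, 1 ERK output gene, SPRED3, was higher, and it was beyond 2.5-fold, so 1 in place of 0. With a library left out, other ETS genes lower ranged from 2 to 4 and lower beyond 2.5-fold from 1 to 2, regulators higher from 2 to 7, PEA3 targets lower beyond 2.5-fold from 3 to 5 and higher beyond it from 0 to 1, and FLI1 and ERG genes higher from 1 to 2. GABPA, which was not called, lay between −0.024, a change of sign without maltonis replicate 3, and 0.093 with a library left out, and at 0.169 under total counts. Of 588 values for 49 other genes of the lists, 548 kept direction and side of the threshold, 29 lost the call and 10 gained it. The cause of these shifts was not tested beyond the scaling and the samples removed.

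The labels give both groups the same replicate numbers without saying that they pair the libraries. Deviations from the group means correlated at 0.301, 0.0852 and 0.161 for same-numbered libraries, and not treated replicate 2 correlated best with maltonis replicate 3 (0.123), so no pairing was assumed. With a block for the number, 4602 genes were higher and 4620 lower in place of 4213 and 4239, and the member counts were again 3 and 3. ETV7 and ERG had at most 6 and 10 counts in a not treated library, so their ratios are known only within the intervals given, and ETV1 has no ratio.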
